A study of Homo sapiens with 12 samples.

Results

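The transcripts of 10 genes of the YAP and TAZ transcription machinery were followed in MCF10A, an epithelial line from human breast that does not form tumours: YAP1, WWTR1 (which encodes TAZ), TEAD1, TEAD2, TEAD3, TEAD4, VGLL1, VGLL3, VGLL4 and TRPS1. They were taken by gene identity, as 10 of the 23459 genes of the count table. All cells carried a lentiviral, doxycycline-inducible YAP5SA allele, a YAP mutant that the Hippo kinases cannot switch off, and had received a second vector, either one that expresses JUN or its empty control. Each of these lines received 100 ng/ml doxycycline (Dox) to induce YAP5SA or the solvent ethanol (EtOH), which gave 3 libraries for each of the groups vector EtOH and vector Dox, and as many for JUN EtOH and for JUN Dox. The controls of every comparison therefore carried the inducible allele as well. No group received doxycycline without this allele, so effects of the drug itself and of YAP5SA cannot be told apart here. Reads of the endogenous genes and of the YAP5SA and JUN vectors were counted together, so YAP1 and JUN values can include the vectors.

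YAP and TAZ are coactivators without a DNA-binding domain of their own, and TEAD1 to TEAD4 are the DNA-binding proteins that bring them to enhancers and promoters. The Hippo kinases phosphorylate YAP and TAZ and thereby keep them in the cytoplasm or send them to degradation. VGLL proteins bind TEADs through the same surface that YAP and TAZ use, and TRPS1 is a GATA-type zinc finger repressor known to dampen YAP activity in mammary cells.

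Induction of YAP5SA in vector cells raised the transcripts of TEAD1, TEAD4, VGLL3 and VGLL4 and lowered those of WWTR1, TEAD2 and TRPS1. These were 7 of the 9 genes tested (edgeR quasi-likelihood test, adjusted p under 0.05), where 30.1% of all 14775 tested genes were called, 15.6% as higher and 14.4% as lower. In JUN cells the same induction called 4 of 9, with VGLL3 and TEAD4 higher and WWTR1 and TRPS1 lower, against 21.4% of all genes (11.2% higher and 10.3% lower). The JUN vector without induction called 6 of 9, namely VGLL3, VGLL4, WWTR1 and TRPS1 higher and TEAD2 and TEAD4 lower, against 39% of all genes (20.1% higher and 18.9% lower). With YAP5SA induced, the JUN vector again called 6 of 9, against 35.6% of all genes (18.4% higher and 17.2% lower). VGLL3, WWTR1 and TRPS1 were then higher and TEAD1, TEAD2 and TEAD4 lower. Without replicate 1 of vector Dox, which stood apart from its group, the counts of the 4 comparisons in this order were 7, 4, 6 and 4, where 28.6%, 25.9%, 45.3% and 29.7% of all genes were called. The 6 calls of the JUN vector without induction were 3 without JUN EtOH replicate 2 (29% of all genes), and the 6 with induction were 3 without JUN Dox replicate 1 (28.5%) or without JUN Dox replicate 2 (26.9%). VGLL1 had no read in any library and TEAD3 and YAP1 passed the test in none of the 4 comparisons.

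The libraries held 18594867 to 28993487 counts each. JUN, the gene of the expression vector, stood at 55.0, 35.5 and 52.2 CPM (counts scaled to library size, with TMM factors) in the 3 vector EtOH libraries and at 1064 to 1399 in the 6 libraries of JUN cells. YAP5SA induction in vector cells also raised JUN 3.98-fold (log2 fold change 1.99 ± 0.16 SE, edgeR adjusted p = 3.09e-07), to 186 to 194 CPM. All 9 basal mammary epithelial markers examined, among them KRT5, KRT14 and TP63, were at 1 CPM or more in every group. The leukocyte marker CD3E had 0 reads in the 277424996 counts of all libraries, and PTPRC, CDH5, COL3A1 and COL1A2 had 9, 7, 6 and 1. CD14 was the exception among the leukocyte markers, at 24.3 to 30.9 CPM in vector EtOH and 4.30 to 5.84 in vector Dox. Of the 5 fibroblast markers, PDGFRA was at 87.9 to 156 CPM over all libraries and COL1A1 at 1.30 to 3.96, and the summed list ran from 92.2 to 158 CPM. Besides CDH5, the endothelial markers KDR and VWF had 39 and 36 reads. PECAM1 had a mean of 1.75 CPM in vector EtOH, 0.471 in JUN EtOH, 0.0601 in vector Dox and 0.0862 in JUN Dox. Among hormone-responsive luminal markers, GATA3 was at 14.3 to 28.2 CPM over all libraries and FOXA1 at 8.33 to 14.4. ESR1, PGR and KRT19 stayed under 1 CPM. The summed basal markers were at 10904 to 11844 CPM in vector EtOH, 6113 to 7526 in vector Dox, 7667 to 11025 in JUN Dox and 12103 to 13590 in JUN EtOH. The last sum held more LAMB3 (group means 3566 against 1444 CPM), KRT14 (481 against 209) and TP63 (27.4 against 14.2) than vector EtOH. It held less KRT5 (3521 against 4615) and ITGB4 (449 against 758). Of the 9 log2 fold changes in this comparison, 6 were above 0 and 3 below, with 3 called higher and 1 lower (44.4%, against 39% of all genes). Induction lowered 8 of the 9 in vector cells (88.9%, against 30.1%) and 5 in JUN cells (55.6%, against 21.4%), and raised none past the threshold. The summed pan-epithelial markers EPCAM, CDH1 and KRT18 were at 866 to 957 CPM in vector EtOH, 987 to 1010 in vector Dox, 465 to 577 in JUN EtOH and 314 to 503 in JUN Dox. The JUN vector lowered 2 of these 3 without induction and all 3 with it, and EPCAM fell from a mean of 146 CPM in vector EtOH to 43.0 in JUN EtOH. The part of these markers in the results below was not tested. Fewer cells of a kind and less RNA per cell cannot be told apart in such libraries. Replicate 1 of vector Dox stood apart from its group, since its counts differed from those of the other two libraries by a chi-square of 63.5 and 50.7 for each degree of freedom, and theirs from each other by 9.71. In JUN Dox, libraries 1 and 3 differed by 52.7 on this measure.

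Per kilobase of exon, and averaged over the 12 libraries, YAP1 was the most abundant transcript of the set at 36.8 CPM per kb. TEAD1 (17.3), TEAD4 (15.1), WWTR1 (7.68), VGLL4 (5.42), TEAD2 (4.67), VGLL3 (4.06), TRPS1 (3.88) and TEAD3 (3.54) followed on the same scale. In vector EtOH cells, with YAP5SA not induced and no JUN vector, the order was YAP1, TEAD4, TEAD1, WWTR1, TEAD2, VGLL4, TRPS1, TEAD3 and VGLL3. Neighbours in this order whose library ranges overlapped were TEAD4 and TEAD1, WWTR1 and TEAD2, and VGLL4 and TRPS1. VGLL1, at 0 counts, allows a level of up to 0.0108 CPM over all libraries (3 counts). These floors cover counting error only. Of the other TEAD binders examined, VGLL2 and FAM181B were also at 0 counts and FAM181A had 5.

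**Figure D1:**
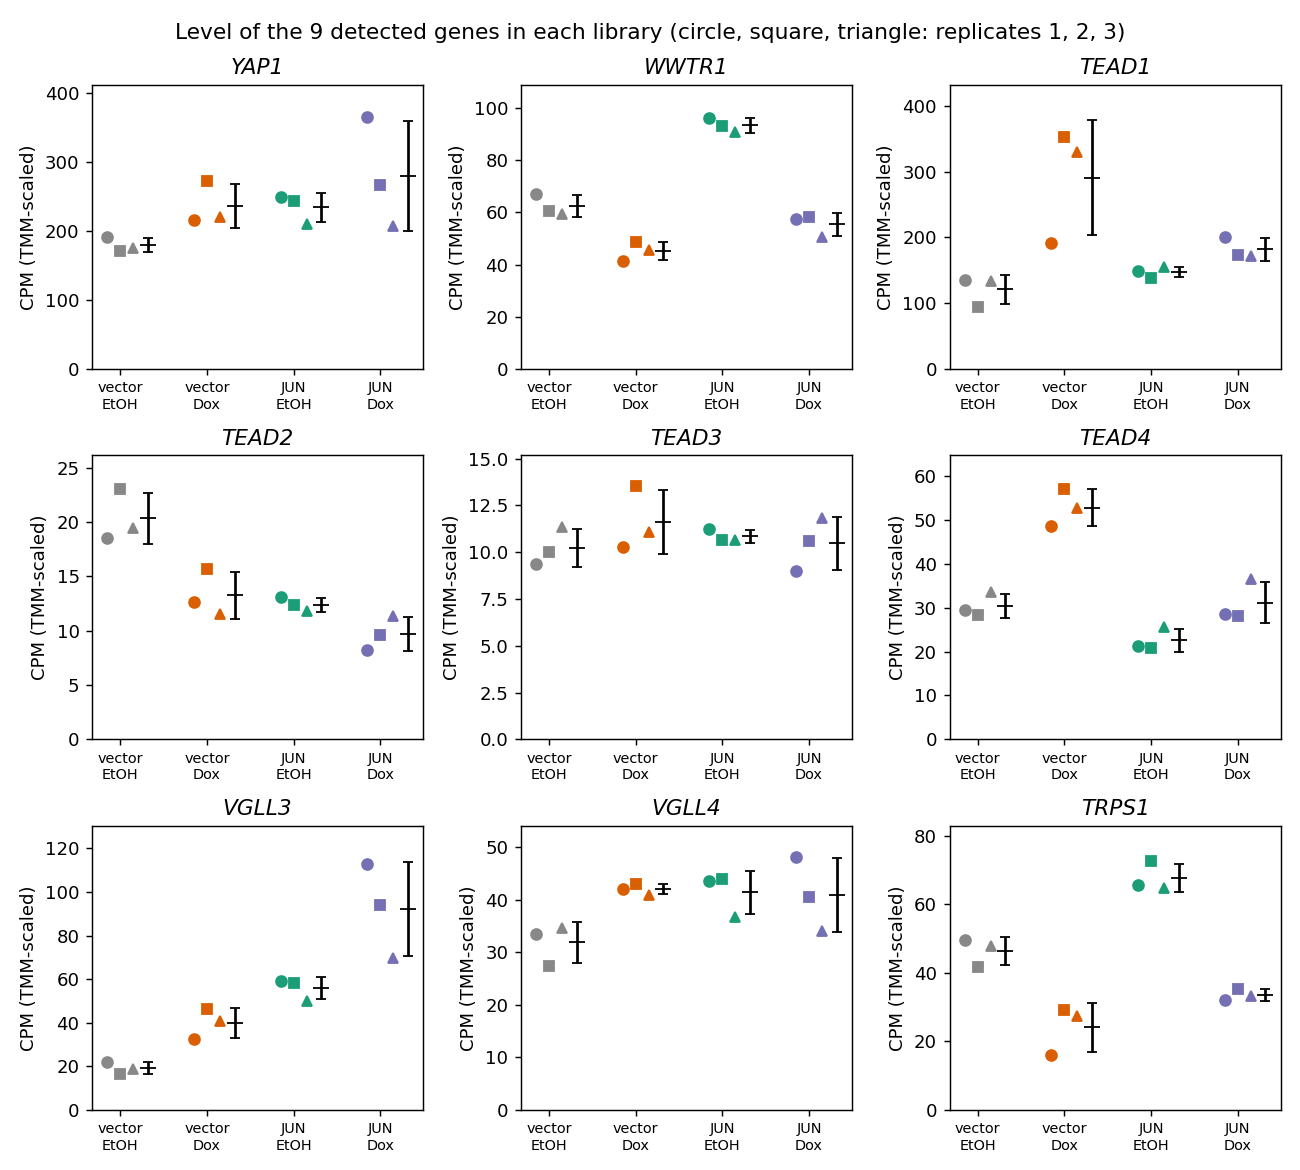
Level of the 9 detected genes in each library, in TMM-scaled CPM on a linear axis from 0; circles, squares and triangles are replicates 1, 2 and 3, and bars are the mean and SD of 3 libraries. VGLL3 rises from 16.4 to 21.8 CPM in vector EtOH to 69.6 to 113 CPM in JUN Dox, while TRPS1 and WWTR1 are lower in both Dox groups than in the matching EtOH groups.

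YAP1 lies on chromosome 11 (GRCh37, 101981178 to 102104155, plus strand). It was measured at 191, 171 and 176 CPM in vector EtOH and at 216, 273 and 221 CPM in vector Dox. The JUN EtOH libraries held 249, 243 and 211 CPM and the JUN Dox libraries 365, 267 and 208 CPM. The vector Dox and JUN EtOH libraries thus all lay above the vector EtOH libraries, and those of JUN Dox spread across both other groups. Induction in vector cells gave a log2 fold change of 0.40 ± 0.16 (SE), which missed the threshold (edgeR adjusted p = 0.0819), and its 95% interval ran from 0.05 to 0.75. The JUN vector without induction gave 0.39 ± 0.16 (adjusted p = 0.0755). Both passed when only the 6 libraries compared were fitted, with 0.38 (adjusted p = 0.0384) and 0.39 (adjusted p = 0.00251), fits whose spread came from those 6 libraries alone. In JUN cells induction changed YAP1 by 0.26 (95% interval -0.09 to 0.61), a value that ran from 0.01 without JUN Dox replicate 1 to 0.43 without JUN Dox replicate 3. The libraries of JUN Dox also differed in GC trend, the correlation across genes of exonic GC content with the deviation of log2 CPM from the group mean. It was -0.36 in replicate 1, 0.06 in replicate 2 and 0.36 in replicate 3. Deviations within a group cancel, so these values only set the libraries of a group against each other. With the JUN vector under induction YAP1 was higher by 0.24 (adjusted p = 0.264), and by 0.42 without JUN Dox replicate 3, which passed the threshold (adjusted p = 0.0374). Leaving out JUN Dox replicate 1 or 3 also brought the first 2 comparisons past it, with adjusted p from 0.0239 to 0.0317. After a correction for GC content the change of YAP1 in JUN cells was 0.22 (adjusted p = 0.323).

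A canonical TEAD motif, searched as the exact letters GGAATG or their reverse complement CATTCC, occurs in the RefSeq promoter windows (250 bases before to 50 after the start site, GRCh38.p14) of YAP1 and of VGLL1 among the 7 of 10 genes with an entry, which have 13 windows. This motif is present in 14% of all 35116 windows. No window of the 7 genes holds the AP-1 motif TGANTCA, which reads the same on both strands and is present in 7.71% of all windows. Such matches describe letters and not sites bound in these cells. The 250 bases before the start site are shown for YAP1 (chr11:102110197-102110446, plus strand), where the motif begins at position -162 from the start site, and for VGLL3 (chr3:86991150-86991399, minus strand), the one gene of the set that passed the test as higher in all 4 pairwise comparisons, with capitals marking the TEAD motif.
YAP1: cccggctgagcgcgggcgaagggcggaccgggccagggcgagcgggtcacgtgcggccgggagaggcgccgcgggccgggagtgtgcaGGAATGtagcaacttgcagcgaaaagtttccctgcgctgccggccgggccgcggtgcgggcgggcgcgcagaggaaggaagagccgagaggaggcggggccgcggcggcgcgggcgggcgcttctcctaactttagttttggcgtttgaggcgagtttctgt
VGLL3: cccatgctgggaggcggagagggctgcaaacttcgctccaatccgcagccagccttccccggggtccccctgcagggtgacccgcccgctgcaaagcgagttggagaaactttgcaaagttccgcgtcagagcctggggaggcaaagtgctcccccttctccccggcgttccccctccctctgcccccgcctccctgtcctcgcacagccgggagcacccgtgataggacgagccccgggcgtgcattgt

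WWTR1, which encodes the YAP paralogue TAZ, lies on chromosome 3 (GRCh37, 149235022 to 149454501, minus strand). Its level was 67.2, 60.4 and 59.4 CPM in vector EtOH, and 41.5, 48.6 and 45.6 CPM in vector Dox. In JUN EtOH it was 96.3, 93.1 and 90.8 CPM, and in JUN Dox 57.6, 58.4 and 50.5 CPM. The JUN EtOH libraries were the highest and those of vector Dox the lowest, and the 4 groups did not overlap. WWTR1 fell by 0.46 ± 0.10 (SE) on the log2 scale on induction in vector cells (edgeR adjusted p = 0.00211) and by 0.75 ± 0.10 in JUN cells (adjusted p = 6.05e-05). The JUN vector raised WWTR1 1.5-fold without induction (log2 fold change 0.58 ± 0.10, adjusted p = 0.000289). Its rise with induction was smaller in value, at 0.29 ± 0.10 (adjusted p = 0.0284), and the call was lost in 7 of 22 alternative settings, among them the fits without vector Dox replicate 1 (0.24, adjusted p = 0.0717), vector Dox replicate 3 (adjusted p = 0.0638), JUN Dox replicate 1 (adjusted p = 0.0681) or JUN Dox replicate 2 (adjusted p = 0.104). YAP1 made up 79.2% ± 0.4 (SD, n = 3) of the summed YAP1 and WWTR1 level per kilobase in vector EtOH and 76.8% ± 1.2 in JUN EtOH. After induction vector cells had 87.3% ± 0.8 and JUN cells 86.5% ± 2.5, and every Dox library was above every EtOH library. The YAP1 reads in these shares can include the induced YAP5SA vector, and were divided by the exon length of the endogenous gene. A shift between the endogenous genes was therefore not tested.

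The 4 TEAD genes encode proteins that bind the same DNA motif, and their transcripts moved in different directions. TEAD1 (chromosome 11, GRCh37, 12695968 to 12966284, plus strand) was at 134, 94.6 and 133 CPM in vector EtOH and at 191, 352 and 329 CPM in vector Dox. It was at 149, 138 and 154 CPM in JUN EtOH and at 201, 173 and 171 CPM in JUN Dox. Every vector Dox library exceeded every library of the EtOH groups, but replicate 1, at 191 CPM, lay within the range of JUN Dox. Induction raised TEAD1 2.41-fold in vector cells (log2 fold change 1.27 ± 0.19, edgeR adjusted p = 0.000148; 1.49 without replicate 1 of vector Dox). In JUN cells its log2 fold change was 0.30 ± 0.19 (95% interval -0.10 to 0.70, adjusted p = 0.291), although the JUN Dox libraries did not overlap with those of JUN EtOH. With YAP5SA induced, TEAD1 was lower in JUN cells than in vector cells (log2 fold change -0.68 ± 0.19, adjusted p = 0.0117). This difference was -0.90 without vector Dox replicate 1 (adjusted p = 0.000118), and it lost the call without replicate 2 (-0.51, adjusted p = 0.0519) or without replicate 3 (-0.58, adjusted p = 0.0505) of vector Dox. Without induction the JUN vector gave 0.29 ± 0.19 (adjusted p = 0.244), which passed only when the 6 libraries compared were fitted alone (adjusted p = 0.0466).

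TEAD4 (chromosome 12, GRCh37, 3068496 to 3149842, plus strand) was at 29.4, 28.3 and 33.5 CPM in vector EtOH, and at 48.6, 57.1 and 52.8 CPM in vector Dox. Its levels were 21.3, 20.9 and 25.6 CPM in JUN EtOH, and 28.6, 28.2 and 36.6 CPM in JUN Dox. The vector Dox libraries were the highest and the JUN EtOH libraries the lowest, while vector EtOH and JUN Dox overlapped. TEAD4 rose 1.74-fold on induction in vector cells (log2 fold change 0.80 ± 0.12, edgeR adjusted p = 0.000211) and 1.38-fold in JUN cells (0.46 ± 0.13, adjusted p = 0.016). It fell by 0.76 ± 0.12 with the JUN vector under induction (adjusted p = 0.000276), a call that stood under all 22 alternatives run. The JUN vector without induction lowered it by 0.43 ± 0.13 (adjusted p = 0.0151). TEAD4 has the highest exonic GC content of the set, at 63.2%, and the last difference was -0.22 after the GC correction, no longer past the threshold (adjusted p = 0.117). The same call was lost without vector EtOH replicate 3 (adjusted p = 0.0764), JUN EtOH replicate 1 (adjusted p = 0.0683) or JUN EtOH replicate 2 (adjusted p = 0.069). The rise in JUN cells was lost without JUN EtOH replicate 1 (adjusted p = 0.0702), without JUN EtOH replicate 2 (adjusted p = 0.0799) and without JUN Dox replicate 3 (adjusted p = 0.0803).

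TEAD2 (chromosome 19, GRCh37, 49843852 to 49865714, minus strand) went the other way from TEAD1 and TEAD4 on induction. It was at 18.6, 23.0 and 19.4 CPM in vector EtOH, and at 12.6, 15.6 and 11.5 CPM in vector Dox. In JUN EtOH its level was 13.1, 12.3 and 11.8 CPM, and in JUN Dox 8.18, 9.64 and 11.3 CPM. All vector EtOH libraries lay above all 9 others. TEAD2 fell by 0.62 ± 0.14 on induction in vector cells (edgeR adjusted p = 0.00475) and by 0.71 ± 0.14 with the JUN vector alone (adjusted p = 0.00154), and both calls stood under all 22 alternatives run. In JUN cells the change on induction was -0.35 ± 0.15 and missed the threshold (adjusted p = 0.116), with a 95% interval from -0.66 to -0.03. Under induction the JUN vector gave -0.44 ± 0.15 (adjusted p = 0.0317), a call lost without vector Dox replicate 2 (-0.30, adjusted p = 0.138), without JUN Dox replicate 1 (-0.33, adjusted p = 0.122) or without JUN Dox replicate 2 (-0.43, adjusted p = 0.0804). TEAD3 (chromosome 6, GRCh37, 35441374 to 35464856, minus strand) ranged only from 8.98 to 13.6 CPM over the 12 libraries. Its 4 pairwise log2 fold changes lay between -0.15 and 0.18, with 95% intervals that reached from -0.45 to 0.48 at the widest.

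Through these changes the make-up of the TEAD pool differed between groups. On the per-kilobase scale, TEAD4 held 38.4% ± 1.1 (SD, n = 3) and TEAD1 32.2% ± 4.5 of the summed TEAD level in vector EtOH. TEAD1 held 45.6% ± 6.5 in vector Dox, 45.5% ± 5.2 in JUN Dox and 43.8% ± 0.5 in JUN EtOH, and each of these 9 libraries was above the 36.1% of the highest vector EtOH library. The share of TEAD2 was 19.7% ± 3.6 in vector EtOH and 13.3% ± 1.2 in JUN EtOH, and with induction vector cells had 7.69% ± 1.40 and JUN cells 8.72% ± 1.15. TEAD3 held between 5.91% and 11.8% in every library. The summed TEAD level was 34.8 ± 2.6 CPM per kb in vector EtOH and 58.7 ± 10.7 in vector Dox, while in JUN cells it was 31.4 ± 1.7 without and 37.3 ± 2.3 with induction. All 3 vector Dox libraries, at 46.8, 67.7 and 61.5 CPM per kb, lay above the other 9. These shares depend on the transcript length used, and with the length of the longest transcript TEAD4 held 42.0% and TEAD1 30.1% in vector EtOH. They were not corrected for GC content, which was 42.9% in exons of TEAD1, 58.9% in TEAD2 and 63.2% in TEAD4. In JUN Dox replicates 1, 2 and 3 TEAD1 held 50.7%, 45.8% and 40.2%. The GC trend of these libraries, measured on deviations from the group mean, was -0.36, 0.06 and 0.36.

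**Figure D2:**
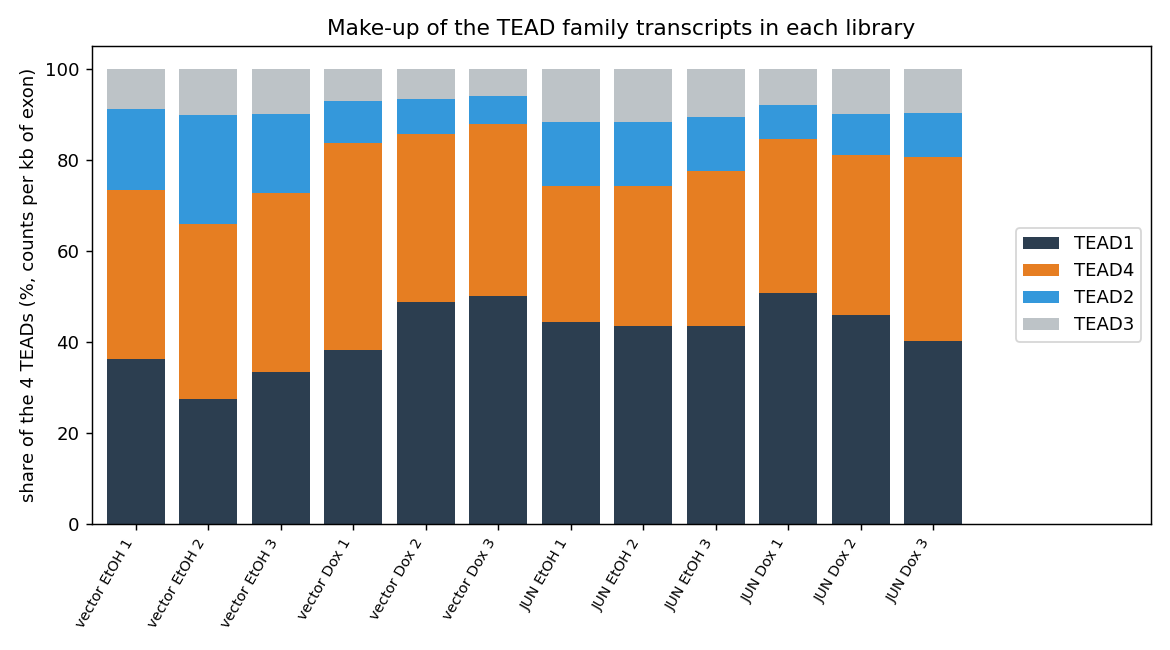
Share of TEAD1, TEAD4, TEAD2 and TEAD3 in the summed TEAD level (percent, counts per kilobase of exon) in each of the 12 libraries; each stacked bar is 1 library and adds up to 100%. TEAD2 takes 17.4% to 23.9% in the vector EtOH libraries and less in all others, and TEAD1 takes more than in vector EtOH in each library of the other 3 groups.

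VGLL3, a TEAD cofactor of the vestigial-like family, showed the widest range of the set. It lies on chromosome 3 (GRCh37, 86925538 to 87040299, minus strand). The vector EtOH libraries held 21.8, 16.4 and 18.9 CPM and the vector Dox libraries 32.4, 46.3 and 40.8 CPM. The JUN EtOH libraries held 59.3, 58.2 and 50.1 CPM and the JUN Dox libraries 113, 93.8 and 69.6 CPM. The groups followed each other in this order without any overlap, and the mean of JUN Dox was 4.84 times that of vector EtOH. Induction raised VGLL3 2.09-fold in vector cells (log2 fold change 1.06 ± 0.17, edgeR adjusted p = 0.000317) and 1.64-fold in JUN cells (0.72 ± 0.17, adjusted p = 0.00658). The JUN vector raised it 2.93-fold without induction (1.55 ± 0.17, adjusted p = 9.55e-06) and 2.31-fold with induction (1.21 ± 0.17, adjusted p = 7.21e-05). All 4 calls stood under all 22 alternatives run. The interaction of JUN vector and induction on the log2 scale was -0.34 ± 0.24 (95% interval -0.86 to 0.17, adjusted p = 0.795).

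VGLL4, which encodes a TEAD-binding competitor of YAP, lies on chromosome 3 (GRCh37, 11597543 to 11812824, minus strand). It was at 33.5, 27.4 and 34.7 CPM in vector EtOH and at 42.1, 43.0 and 41.0 CPM in vector Dox. The JUN EtOH libraries held 43.6, 43.9 and 36.7 CPM and the JUN Dox libraries 48.1, 40.5 and 34.1 CPM. The vector EtOH libraries lay below all others except the third library of JUN Dox, which fell among them. Induction in vector cells gave a log2 fold change of 0.40 ± 0.13 (edgeR adjusted p = 0.0306) and the JUN vector without induction 0.38 ± 0.13 (adjusted p = 0.0323). These calls were lost in 6 and 5 of 22 alternatives, respectively, among them the fits without vector EtOH replicate 1 (adjusted p = 0.0526 and 0.0502) and without vector EtOH replicate 2 (0.29, adjusted p = 0.147, and 0.28, adjusted p = 0.142). The first was also lost without vector Dox replicate 2 (adjusted p = 0.0732) or 3 (adjusted p = 0.059), and the second without JUN EtOH replicate 1 (adjusted p = 0.11) or 2 (adjusted p = 0.108). In JUN cells induction left VGLL4 at -0.02 ± 0.13 (95% interval -0.30 to 0.25). Values of VGLL4 are uncertain for another reason as well: 22.2% of its exonic bases overlap ATG7 on the opposite strand, and strand use in counting is not stated. ATG7 itself changed by 0.17 ± 0.09 and 0.21 ± 0.09 in the same 2 comparisons, neither past the threshold (adjusted p = 0.174 and 0.0819).

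TRPS1, the repressor, lies on chromosome 8 (GRCh37, 116420724 to 116821899, minus strand) and moved with WWTR1. It was at 49.5, 41.6 and 47.7 CPM in vector EtOH, and at 15.9, 29 and 27.4 CPM in vector Dox. Its level was 65.7, 72.4 and 64.8 CPM in JUN EtOH, and 32.1, 35.3 and 33.2 CPM in JUN Dox. The 4 groups did not overlap. TRPS1 fell by 0.94 ± 0.17 on induction in vector cells (edgeR adjusted p = 0.000617), and by 0.72 without vector Dox replicate 1, whose 15.9 CPM was the lowest value. In JUN cells it fell by 1.01 ± 0.17 (adjusted p = 0.000505), to 0.495 times its level without induction. The JUN vector raised TRPS1 by 0.55 ± 0.16 without induction (adjusted p = 0.0162) and by 0.48 ± 0.17 with induction (adjusted p = 0.0383). The last call was lost in 9 of 22 alternatives, and without vector Dox replicate 1 the difference was 0.26 (adjusted p = 0.0768). Leaving out JUN EtOH replicate 1 (adjusted p = 0.0503) or any 1 of the JUN Dox replicates (adjusted p = 0.055, 0.107 and 0.0616 for replicates 1, 2 and 3) lost it as well. The call without induction was lost in 3 of 22, including those without vector EtOH replicate 2 (adjusted p = 0.0703) and without JUN EtOH replicate 2 (adjusted p = 0.062).

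**Figure D3:**
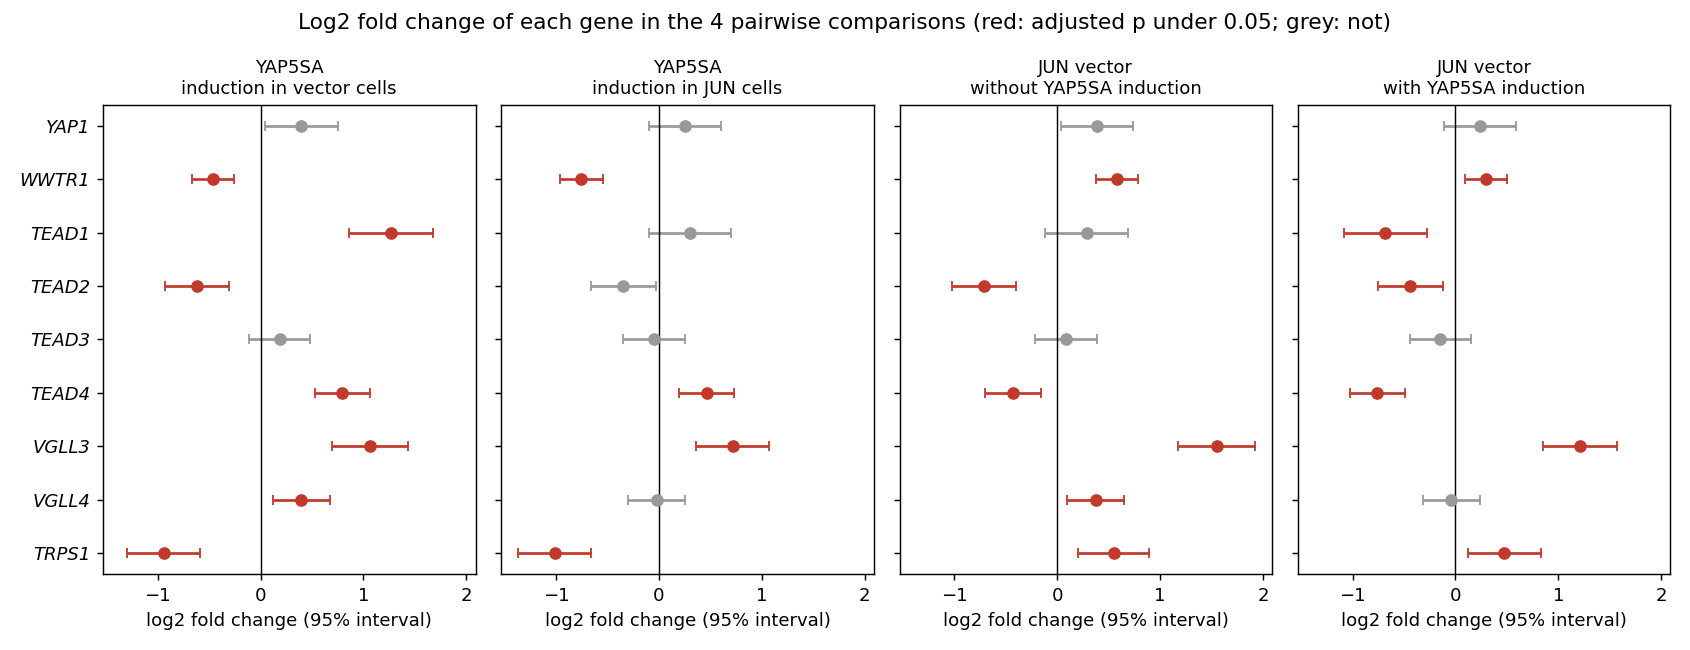
Log2 fold change of each gene in the 4 pairwise comparisons (x axis; points are edgeR estimates and bars their 95% intervals; red marks adjusted p under 0.05). VGLL3 lies to the right of 0 in all 4 panels, WWTR1 and TRPS1 lie to the left on induction and to the right with the JUN vector, and TEAD4 does the reverse.

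Whether JUN altered the response to YAP5SA was tested as the interaction, that is, the change on induction in JUN cells less the change in vector cells. None of the 9 genes was called in edgeR, where 1.12% of all genes were (0.291% above 0 and 0.826% below), and 3 had an unadjusted p under 0.05. TEAD1 had the largest interaction in size, -0.97 ± 0.27 (unadjusted p = 0.00254, adjusted p = 0.122). DESeq2 called it as the only one of the 9 (-0.97, adjusted p = 0.0254), and so did edgeR when vector Dox replicate 1 was left out (-1.19, adjusted p = 0.00213). Over all 21 alternatives the interaction of TEAD1 ran from -1.19 to -0.80 and its adjusted p from 0.00213 to 0.298. WWTR1 (-0.29 ± 0.14, adjusted p = 0.555) and VGLL4 (-0.42 ± 0.18, adjusted p = 0.489) were the other genes with an unadjusted p under 0.05. For TRPS1 the interaction was -0.07 (95% interval -0.57 to 0.43) and for YAP1 -0.14 (95% interval -0.64 to 0.35), intervals that leave room for changes of either sign.

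**Figure D4:**
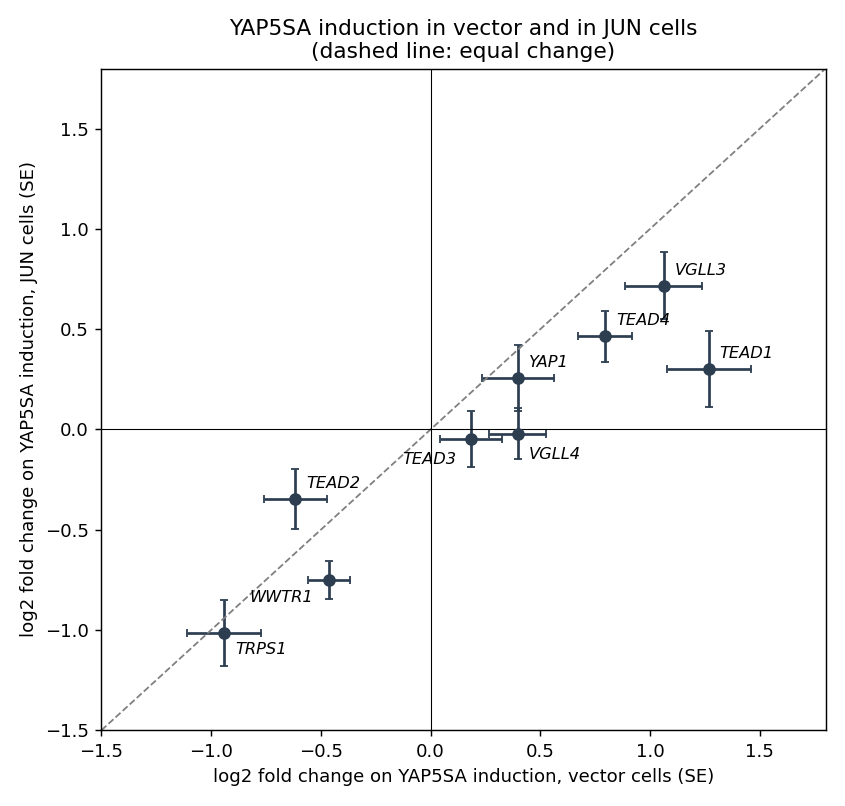
Log2 fold change on YAP5SA induction in vector cells (x axis) and in JUN cells (y axis) for the 9 detected genes, with bars of 1 standard error; the dashed line marks equal change. TEAD1 lies farthest below the line, at 1.27 and 0.30, and TRPS1 lies on it within its error, at -0.94 and -1.01.

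Over the 12 libraries, which include the group differences described above, log2 CPM of WWTR1 and TRPS1 had a Pearson r of 0.94, and that of TEAD2 and VGLL3 an r of -0.93. TEAD4 ran opposite to WWTR1 (r = -0.88), and YAP1 ran with VGLL3 and VGLL4 (both r = 0.85). Within JUN Dox, YAP1, VGLL3 and VGLL4 all fell from replicate 1 over replicate 2 to replicate 3, libraries that also differed in GC trend. The correlations were not corrected for GC content, and its part in them was not tested. Among the 11403 genes that averaged 5 CPM or more, the pattern most like that of VGLL3 was found for OXSR1 (r = 0.994), ZSWIM6 and PDP1. The nearest to TRPS1 were ERAP1 (r = 0.987), TRERF1 and IRF2BP2, and the nearest to TEAD1 were RAB11FIP1 (r = 0.972), SAV1 and TRAM1. YAP1 was closest to ZMYM1 (r = 0.96), TEAD4 to AGAP3 (r = 0.978), TEAD2 to ETNK2 (r = 0.952) and WWTR1, among genes with a symbol, to RETREG3 (r = 0.983). SAV1, the Hippo scaffold of the MST kinases, was at 49.1 ± 3.4 CPM (SD, n = 3) in vector EtOH and 81.5 ± 11.1 in vector Dox, and in JUN cells at 51.0 ± 0.6 without and 62.5 ± 2.0 with induction. It overlaps ATL1 on the opposite strand over 31.9% of its exonic bases, so its reads cannot be assigned with certainty.

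The genes upstream of YAP and TAZ were described with a list of 31 Hippo pathway genes, 30 of which were tested. On induction in vector cells 12 were higher and 4 lower, with a median log2 fold change of 0.22 against 0.01 for all genes. These were 53.3% of the tested list, where 30.1% of all genes were called (15.6% higher and 14.4% lower). AMOTL2, an angiomotin that binds YAP, rose by 2.52 ± 0.14 on the log2 scale (edgeR adjusted p = 7.97e-09), from 97.2 to 126 CPM in vector EtOH to 548 to 744 CPM. FRMD6, a FERM-domain activator of the pathway, rose by 1.90 ± 0.12 (adjusted p = 1.87e-08), whereas the kinase TNIK fell by 1.34 ± 0.17 (adjusted p = 3.04e-05) and its relative MINK1 by 0.46 ± 0.13 (adjusted p = 0.0149). In JUN cells 9 were higher on induction and 2 lower (36.7% against 21.4% of all genes), again with AMOTL2 (2.11) and FRMD6 (1.42) at the top and TNIK (-0.99) and MAP4K4 (-0.56) below. The JUN vector without induction raised 14 and lowered 2 (53.3% against 39% of all genes), with FRMD6 (1.05) and the kinase cofactor MOB1B (0.91) highest and WTIP (-0.52) and TAOK3 (-0.45) lower. With induction it raised 12, led by AMOTL1 (1.2) and TAOK1 (0.80), and lowered 4, among them WTIP (-0.95) and the merlin gene NF2 (-0.46), again 53.3% of the list against 35.6% of all genes. No gene of the list was called for the interaction by edgeR, 7 had an unadjusted p under 0.05 and DESeq2 called 1. Leaving out vector Dox replicate 1 brought 4 interactions past the threshold, where 1.62% of all genes were called. The 16 calls of the JUN vector without induction were 9 without vector EtOH replicate 2 (28% of all genes called) or without JUN EtOH replicate 1 (25.6%). Its 16 calls with induction were 10 without vector Dox replicate 3 (29.1%) or without JUN Dox replicate 1 (28.5%). Out of 30 tested genes, these counts stood nearer to the shares of all genes than the 53.3% above. AMOTL2, LATS2 and PTPN14 are also on the list of YAP targets.

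Of 22 YAP target genes, all tested, 17 were higher and none lower on induction in vector cells (median log2 fold change 1.52, against 0.01 for all genes), and 15 were higher and none lower in JUN cells (1.06). All genes were called higher at 15.6% and 11.2% in these comparisons. IGFBP3, which encodes an insulin-like growth factor binding protein, rose from 1.15 to 1.56 CPM to 73.8 to 102 CPM in vector cells (log2 fold change 5.98 ± 0.29, edgeR adjusted p = 2.17e-09). CCN1, a matricellular protein gene and a common YAP reporter, rose by 4.79 ± 0.14 in vector cells (adjusted p = 1.31e-11) and by 4.12 ± 0.14 in JUN cells (adjusted p = 7.48e-11). The JUN vector without induction raised 10, including F3 (2.31 ± 0.20) and CCDC80 (2.3 ± 0.11), and lowered 4, including CCN2 (-1.19 ± 0.16) and FJX1 (-0.61 ± 0.10). These 14 calls made 63.6% of the list against 39% of all genes. Without JUN EtOH replicate 1 the JUN vector called 9 of the 22, where 25.6% of all genes were called. With induction it raised 6, led by NT5E (1.99 ± 0.12), and lowered 9, including the kinase gene NUAK2 (-2.16 ± 0.13) and CCN2 (-1.37 ± 0.14), together 68.2% of the list against 35.6% of all genes. For the interaction 5 of 22 were called, all of them below 0, where 0.826% of all genes were called below 0. The changes of TEAD2, TEAD4 and WWTR1 stood beside those target changes in the same libraries, and any link between them was not tested.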

How the data were processed

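RNA was measured in 12 libraries of MCF10A cells, grouped by their titles. According to the labels and the study's methods, poly(A) RNA was sequenced single-end, reads were trimmed with cutadapt, aligned to hg19 with Bowtie2 and counted per gene with countOverlaps. The submitters' processing notes name cutadapt 4.2 and Bowtie2 2.3.5.1; the study's methods name another Bowtie2 version. The authors deposited raw counts per Entrez gene without normalization. The annotation and any use of strand are not given in the sources used here. Bowtie2 does not split reads across introns, so junction reads are largely lost in all libraries. This loss can differ between genes, and its part in the levels per kilobase and in the TEAD shares was not tested.

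Symbols were assigned to 23308 of 23459 IDs from a RefSeq table. Exon lengths, GC content and positions came from GENCODE v44lift37 (GRCh37), matched for 22518. Genes were filtered with filterByExpr (minimum count 10, minimum total 15), which left 14775, and tested with edgeR 4.0.16 (R 4.3.3) by a robust quasi-likelihood fit with TMM factors, 1 mean per group, Benjamini-Hochberg adjustment over all tested genes and a threshold of 0.05. The study states biological replicates; replicate numbers were tested as a block only as an alternative. Other alternatives were DESeq2 1.42.0, RLE and upper-quartile factors, other filters, a GC correction (lowess span 0.3), a test against a 1.2-fold change and leaving out each library. Named genes were the 10 genes, JUN, the 2 highest and 2 lowest called genes of the Hippo and YAP target lists (averaging 5 CPM or more), and the 3 genes with the highest correlation to YAP1 and to each gene whose group means spanned at least 2-fold. Members, lists and tests were chosen with earlier results of these data known. On counts simulated for 1 comparison with 14598 genes tested, the fit recovered 63.7% of 1.5-fold and 96.4% of 2-fold changes. The changes were placed only in a sample of genes averaging 5 CPM or more. The simulated libraries held no GC trend and no outlying library, unlike the real ones.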

Additional observations from a re-analysis of the deposited data

Results flagged for a closer look

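The JUN count, which pools the vector and the endogenous gene, changed differently on the log2 scale in the 2 kinds of cells. Its interaction of JUN vector and induction was -2.03 on the log2 scale, since induction raised it 3.98-fold in vector cells while its log2 fold change in JUN cells, where the vector adds to the count, was -0.03 ± 0.15 (SE). Reads of the JUN vector and of the endogenous gene cannot be told apart in the counts. The JUN EtOH libraries already stood at 1064 to 1399 CPM. A rise like that in vector cells, from a mean of 47.6 to 190 CPM, would be small on the log2 scale against that level. Whether the endogenous gene responded differently was therefore not tested.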

How the results depend on the processing

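Of 981 values of the 9 tested genes under alternative settings, 914 kept direction and side of the threshold, 47 lost the threshold, 10 gained it and 10 changed sign. Numbers of genes of the set called were, for the JUN vector without induction, 3 with the test against a 1.2-fold change and 3 to 7 over fits that left out 1 library each (3 without JUN EtOH replicate 2). For the JUN vector with induction they were 3 when only the libraries of the comparison were fitted, 3 with the test against a 1.2-fold change and 3 to 6 with 1 library left out (3 without JUN Dox replicate 1 or 2). For the interaction they were 1 with DESeq2 and 0 to 1 with 1 library left out. Of the values that changed sign, TEAD3 on induction in JUN cells became 0.0018 after the GC correction, and with 1 library left out TEAD3 ran from -0.15 to 0.046, VGLL4 from -0.16 to 0.097 in that comparison, VGLL4 from -0.17 to 0.075 with the JUN vector under induction, and the interactions of TRPS1 from -0.29 to 0.088 and of YAP1 from -0.36 to 0.032. JUN, which is not among the 9, ran from -0.15 to 0.035 on induction in JUN cells with 1 library left out. Over all genes, calls fell from 4443 to 2488 (induction in vector cells), from 5766 to 3209 (JUN vector without induction), from 3168 to 1491 (induction in JUN cells), from 5267 to 2868 (JUN vector with induction) and from 165 to 100 (interaction) with the 1.2-fold test. The JUN vector with induction called 3439 in its own libraries, and DESeq2 called 358 for the interaction. Leaving out JUN EtOH replicate 1 gave 3823 for the JUN vector without induction, leaving out JUN EtOH replicate 2 gave 2082 for induction in JUN cells, and the interaction fell to 97, 107 and 99 without vector EtOH replicate 3, JUN EtOH replicate 1 and JUN EtOH replicate 2. Calls among Hippo genes with the JUN vector fell from 16 to 9 (without induction) and 6 (with induction) with the 1.2-fold test, and to 8 with induction in its own libraries. Interaction calls among YAP targets rose from 5 to 9 with DESeq2. Deviations from the group means correlated above 0.1 in 7 of 18 same-numbered pairs of libraries (median 0.088). Among differently numbered pairs 5 of 36 did (median -0.048). Same-numbered pairs ran from -0.26 (vector EtOH 2 and vector Dox 2) to 0.47 (JUN EtOH 3 and JUN Dox 3). Differently numbered pairs ran from -0.47 to 0.315. Deviations within a group cancel, so higher values in same-numbered pairs go with lower values in the others. A shared effect of replicate number can therefore not be read from these values. The replicate block changed none of 45 calls. With the replicate block and GC correction together, WWTR1 (0.23, adjusted p = 0.0502) and TRPS1 (0.42, adjusted p = 0.0502) with the JUN vector under induction, and TEAD4 without it (-0.22, adjusted p = 0.105), lost the call. The causes of these changes were not tested. Changes near 1.3-fold, such as those of YAP1 and VGLL4, lay on either side of the threshold depending on the setting.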

Other observations

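Among 12 coactivators of YAP and TEAD, induction in vector cells lowered 3, the p160 coactivator genes NCOA1 and NCOA3 (both -0.60) and NCOA2 (-0.31), and raised none. In JUN cells NCOA3 was the only one lowered (-0.92). The JUN vector without induction raised EP300 alone (1.75), and with induction NCOA1 alone (0.70). EP300 was low and scattered, at 3.14 to 6.12 CPM in vector EtOH, 8.26 to 18.4 in JUN EtOH and 5.05 to 19.1 in JUN Dox. The shares of the list called, 25% for induction in vector cells and 8.33% in each of the other 3 comparisons, were below the 30.1%, 21.4%, 39% and 35.6% of all genes called. Of 15 corepressor genes of the NuRD and CtBP complexes, induction in vector cells raised GATAD2A (0.45), HDAC2 (0.33) and CTBP2 (0.27) and lowered CHD3 (-0.77) and HDAC1 (-0.26). In JUN cells it raised HDAC2 (0.40) and lowered GATAD2B (-0.44). The JUN vector lowered MBD3 (-0.50), MTA2 (-0.33) and HDAC2 (-0.27) without induction, and MBD3 (-0.41) and RBBP4 (-0.32) with it. The shares called were 33.3% for induction in vector cells, near the 30.1% of all genes, and 13.3% for induction in JUN cells, 20% for the JUN vector alone and 13.3% for it with induction, below those of all genes. All values are log2 fold changes of genes called by edgeR at an adjusted p under 0.05, and these genes were named after their values were seen. CTBP2 and RBBP4 overlap genes on the opposite strand over 30.8% and 22.8% of their exonic bases.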
